A study of Schizosaccharomyces pombe with 8 samples.

Results

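The long annotated introns of fission yeast, Schizosaccharomyces pombe, were examined in splicing-factor mutants and in WT cells. An intron was taken as long when the deposited table classed it as an annotated splice site, its length was 150 nt or more, and each library held no fewer than 20 spliced plus unspliced reads over it. The table held 5144 annotated introns, of which 2514 reached that depth in all 8 libraries, and 414 of these were long. A further 161 annotated introns of 150 nt or more had fewer reads in at least 1 library and were not used. The 414 long introns ran from 150 to 855 nt with a median of 218.5 nt, against a median of 62 nt over the 2514 introns, and lay in 395 genes for the 410 that matched a gene model. Neither the unspliced share nor any difference between strains was a criterion, but unspliced reads counted towards the depth. The limit was met by 414 of the 575 annotated introns of 150 nt or more and by 2514 of all 5144.

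Poly(A) RNA was sequenced from 6 strains with temperature-sensitive alleles, 1 library each, and from 2 libraries of WT strain ED666. The mutants were sap114-A152V and prp10-R379H, both in proteins of the U2 snRNP (SF3a and SF3b), prp1-G705D, in a tri-snRNP protein, prp22-V801M;G917R, in the helicase that frees the ligated mRNA, cwf22-G191D, in a protein that stays with the spliceosome through catalysis, and ntr1-W597R, in a protein that helps take the spliceosome apart. All 8 cultures, WT included, were grown in YPD at 25 °C and then held at 37 °C for 15 minutes, so heat exposure was shared by every group. Each mutant group is 1 strain and 1 library, and nothing in the sample descriptions says whether the WT libraries came from separate cultures, so p-values measure only the spread between these libraries. Reads over annotated introns totalled 420473 in WT replicate 1, 846804 in WT replicate 2 and from 809751 (prp10) to 1858792 (ntr1) in the mutants. The median depth of a long intron was 99.5 and 192.5 reads in the WT libraries and higher in every mutant, up to 602.5 reads.

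An intron is removed in 2 chemical steps by the spliceosome, which recognises the 5′ splice site, a branch-point adenosine and the 3′ splice site. The U1 and U2 snRNPs first bind the 5′ splice site and the branch site, the U4/U6.U5 tri-snRNP then joins, and helicases such as Prp22 act on the assembled complex before it is taken apart. Fission yeast introns are mostly short and are thought to be recognised by pairing of splice sites across the intron, so the long introns are the unusual ones in this organism. RNA that keeps an intron may be exported, spliced later or degraded, and poly(A) RNA-seq counts what is present, not the rate of splicing.

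Sequences are shown for 3 introns at the lower limit of length, for the long intron with the smallest mutant mean share (fmd1) and for the third intron of vac8, which was among the largest rises. They were read from the NCBI reference at the table's coordinates, and capitals mark the first 6 bases, a branch-site match and the last 3 bases.
ucp8 intron 1: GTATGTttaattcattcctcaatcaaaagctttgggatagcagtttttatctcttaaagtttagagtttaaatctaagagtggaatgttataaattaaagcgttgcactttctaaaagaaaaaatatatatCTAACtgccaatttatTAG
gir2 intron 3: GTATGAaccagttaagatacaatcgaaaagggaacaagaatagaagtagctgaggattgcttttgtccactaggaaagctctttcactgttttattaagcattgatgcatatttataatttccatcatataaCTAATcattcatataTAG
snu13 intron 1: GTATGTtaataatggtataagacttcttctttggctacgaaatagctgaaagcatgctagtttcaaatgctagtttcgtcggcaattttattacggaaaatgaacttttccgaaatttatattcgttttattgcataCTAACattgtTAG
fmd1 intron 1: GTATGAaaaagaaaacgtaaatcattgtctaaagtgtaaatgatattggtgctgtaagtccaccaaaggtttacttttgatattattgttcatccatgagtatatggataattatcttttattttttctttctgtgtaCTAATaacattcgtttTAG
vac8 intron 3: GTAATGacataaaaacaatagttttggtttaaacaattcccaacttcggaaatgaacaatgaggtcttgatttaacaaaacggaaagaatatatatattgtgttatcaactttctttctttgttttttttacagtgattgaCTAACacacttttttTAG
The introns lie at chrII:1510731-1510880 on the plus strand (ucp8), chrIII:815820-815969 on the minus strand (gir2), chrI:2041296-2041445 on the minus strand (snu13), chrII:4374886-4375042 on the minus strand (fmd1) and chrII:585412-585570 on the minus strand (vac8). Build ASM294v2 is named in the submitters' processing notes while the reference copy is named ASM294v3. Every intron printed here starts with GT and ends in AG at these coordinates, as did 5134 of the 5143 annotated introns on the 3 chromosomes.

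The long introns also differed from the shorter ones in the letters at their splice sites, given here as a description with no test. The first 6 bases were GTAAGT in 43.2% of the long introns and in 25.6% of the 2100 tested introns under 150 nt, and GTATGT in 26.1% and 21.7%. A branch-site match, taken as the last match to CTAAC, to CTAAT, to CTGAC or to CTGAT within the last 60 nt on the intron's own strand, was found in 86.2% of the long introns and 76.4% of the shorter ones, and CTAAC was the match in 58.7% and 42.7%. The median distance from the branch adenosine to the last base was 11 nt in both sets. The last 3 bases were TAG in 77.1% of long and 70.3% of shorter introns and AAG in 5.31% and 11.7%, and median GC content was 31.0% and 28.6%. These matches are descriptions of letters in a window and not mapped branch sites. By position, 389 long introns interrupted a coding sequence, 18 lay in a 5′ UTR, 2 in a 3′ UTR and 1 in a non-coding transcript, while 4 matched no annotated intron. First introns made up 238, later introns 172, and in 146 cases the long intron was its gene's only intron. A gene on the opposite strand overlapped 262 of the long introns (63.3%, against 59.0% of all 2514), and no same-strand gene lay inside one. The libraries were directional, but whether the counting used strand is not given in the sources used here, so reads of an antisense partner may be included.

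The long introns made up 8.05% of the annotated introns and 25.1% of their summed length, and they held from 49.2% to 54.1% of all unspliced reads over annotated introns in each of the 8 libraries. Their part of the spliced reads was lower and equally even, from 25.0% (sap114) to 27.4% (WT replicate 1). These parts are of all 5144 annotated introns, of which 2514 reached the depth limit. Every long intron was chosen for reaching it, so part of their excess of reads follows from that choice.

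As the reads were counted, unspliced RNA was already common at these introns in WT cells and was the main form in every mutant. With unspliced counts scaled to intron length the medians were lower, at 5.55% and 6.40% in WT and 34.0% in prp1, and passed 50% in the other 5 mutants. The unspliced share of an intron is its unspliced reads over its unspliced plus spliced reads. The median share over the 414 introns was 17.95% and 20.9% in the WT libraries, 67.5% in prp1 and 82.6% (prp10), 84.0% (prp22), 86.3% (cwf22), 91.7% (ntr1) and 91.8% (sap114) in the others. The lowest mutant median stood far above the higher WT median. As class means this was 84.0% ± 8.97 (SD, n = 6) in mutants and 19.4% ± 2.07 (SD, n = 2) in WT, while the tested introns under 150 nt gave 62.0% ± 15.98 and 4.30% ± 0.446. More than 50% of the reads were unspliced at 64 and 74 of the 414 introns in the WT libraries (15.5% and 17.9%, against 4.06% and 4.34% of all tested introns). In the mutants this held at 296 (prp1) to 406 (ntr1) of them (71.5% and 98.1%, against 31.9% and 88.3% of all tested introns). A share over 90% was found at 35 long introns in prp1 (8.45%, against 1.79% of all tested introns). It was found at 229 and 230 in sap114 and ntr1 (55.3% and 55.6%, against 27.3% and 28.7%). In the WT libraries it was found at 3 and 5 (0.725% and 1.21%, against 0.318% and 0.358%).

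**Figure D1:**
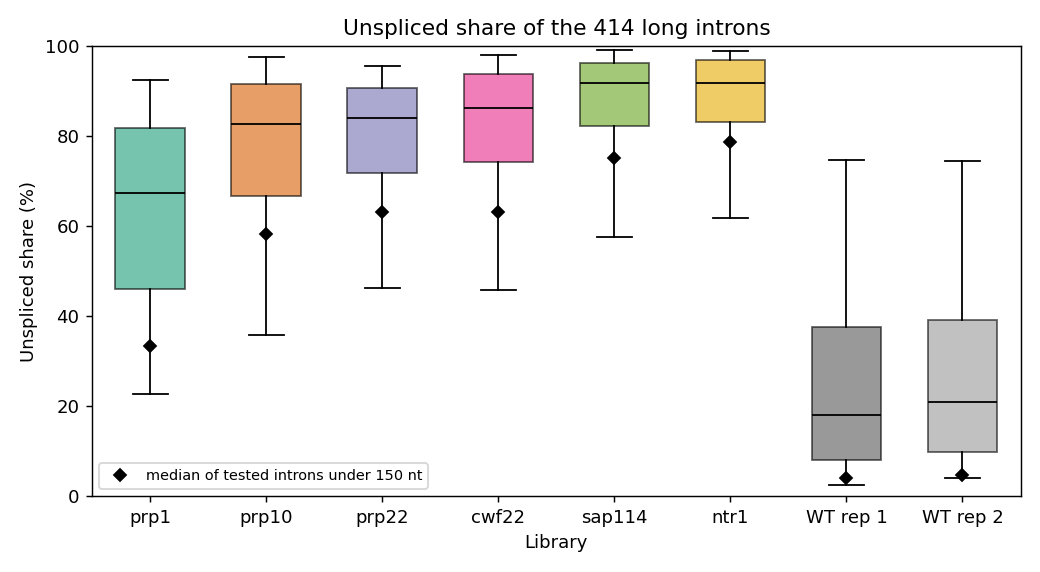
Unspliced share (%) of the 414 long introns in each library, with the box at the quartiles, the line at the median, whiskers at the 5th and 95th percentiles, and a diamond at the median of the tested introns under 150 nt. Medians ran from 67.5% to 91.8% in the mutants and were 17.95% and 20.9% in WT, and each diamond lies below its box's median.

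As counted, the median share climbed with each length class of the long introns in every library. At 165 introns of 150 to under 200 nt the median share averaged 12.2% ± 1.57 (SD) over the 2 WT libraries and 77.4% ± 12.3 (SD) over the 6 mutants. The 151 introns of 200 to under 300 nt had 22.7% ± 0.203 and 83.2% ± 9.28, the 78 of 300 to under 500 nt had 30.8% ± 5.66 and 88.9% ± 6.85, and the 20 of 500 nt or more had 50.3% ± 4.96 and 94.9% ± 3.59. Within the long introns, Spearman's rho between length and share was 0.357 and 0.407 in the WT libraries and from 0.323 (sap114) to 0.404 (prp1) in the mutants, as a description over 414 introns that share libraries and depth.

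How a read was counted as unspliced is not given in the sources used here, and a longer intron gives more room for such reads. When each unspliced count was multiplied by 62 over the intron's length, the median share of the long introns was 59.0% ± 14.4 in mutants and 5.98% ± 0.603 in WT, and that of the introns under 150 nt was 62.5% ± 15.6 and 4.23% ± 0.361. On that scale the long introns were not above the shorter ones in the mutants and stood slightly above them in WT. A factor that is constant for an intron multiplies its odds in every library alike. It cancels in the change of the odds between strains, but not in the share or in a change in percentage points. Mutants exceeded WT in median share by 64.6 percentage points as counted and 53.0 scaled at the long introns. Under 150 nt the values were 57.7 and 58.3.

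**Figure D2:**
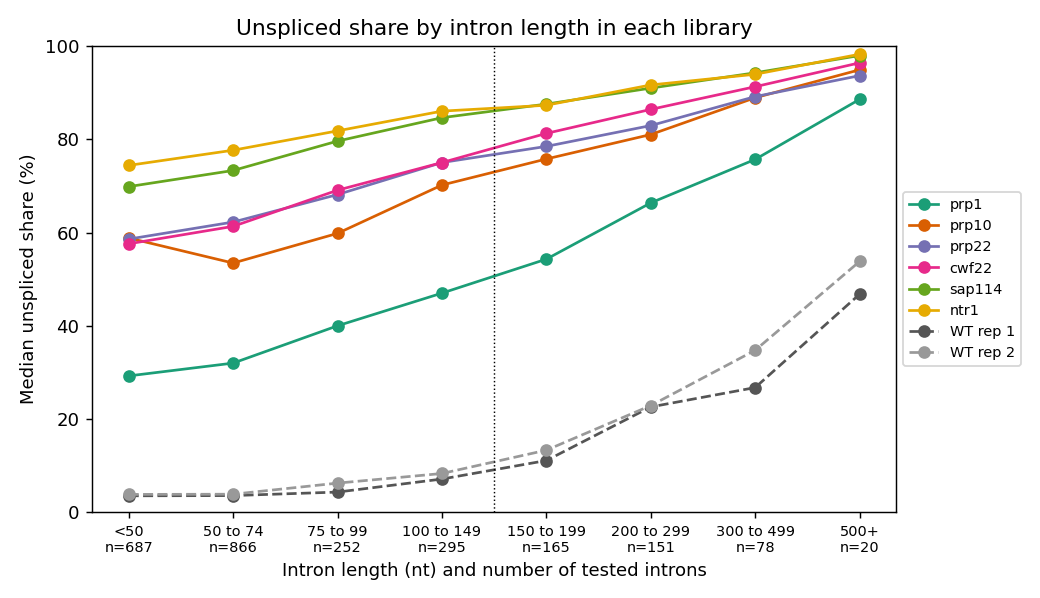
Median unspliced share (%) of tested introns by length class in each library, with the number of introns in each class under the axis and a dotted line at the limit of 150 nt. Every library has a higher median at 500 nt or more than under 50 nt, and the WT lines reach 46.8% and 53.8% in the longest class.

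The mutants as a class were compared with WT by edgeR's quasi-likelihood F test on spliced and unspliced counts, with Benjamini-Hochberg adjustment at 0.05 over all 2514 introns. The odds of being unspliced rose at 390 of the 414 long introns (94.2%, against 96.9% of all tested introns) and fell at 0. None passed as a fall at an unadjusted p under 0.05 either. DESeq2 and limma called 394 and 390 rises, against 2457 and 2448 of all 2514 tested introns, and 0 falls. The median change in the odds on the log2 scale was 4.56 at the long introns, 5.07 over all tested introns and 5.17 under 150 nt. It hardly varied among the long introns by length, with medians of 4.62, 4.55, 4.49 and 4.54 in the 4 length classes from shortest to longest. At 407 long introns every mutant library exceeded both WT libraries (98.3%, against 98.6% of all tested introns), and mutant and WT shares overlapped at 6, in SPAC1687.21 (intron 2), apc11, grx2, pac3, dcd1 and cox19. Against WT alone, rises were called at 386 (prp1, 93.2%, background 92.5%), 390 (prp10, 94.2%, background 95.6%), 403 (prp22, 97.3%, background 97.5%), 399 (cwf22, 96.4%, background 97%), 404 (sap114, 97.6%, background 98.1%) and 407 (ntr1, 98.3%, background 98.8%) long introns. In these strain fits the spread comes from the WT pair with 1 residual degree of freedom, and a lone mutant library is assumed to vary like that pair.

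The largest rises in percentage points, among introns of 50 or more reads in each library, were at introns that were mostly spliced in WT and mostly unspliced in the mutants. A large rise on this scale requires both. The largest was at intron 3 of gnd1 (SPBC660.16, 6-phosphogluconate dehydrogenase of the pentose phosphate pathway), which at 817 nt is also among the longest of the long introns. Its unspliced share was 4.03% and 7.10% in WT, 64.2% in prp1, 87.0% in prp22, 90.3% in prp10, 93.8% in cwf22, 97.1% in ntr1 and 97.7% in sap114. The groups did not overlap, and the log2 change in the odds was 7.73 (SE 1.28, edgeR adjusted p = 3.41e-06). Intron 3 of nog1, a GTPase of large ribosomal subunit assembly, had 8.89% and 8.33% unspliced in WT and from 73.9% to 98.9% in the mutants. Intron 1 of dsc5, a subunit of the Golgi Dsc ubiquitin ligase, had 5.15% and 5.13% in WT and from 64.1% to 97.1% in the mutants. At the 159-nt intron 3 of vac8, a vacuolar armadillo-repeat protein, 0 of 52 reads were unspliced in WT replicate 1, which allows a share of up to 5.77%, and 5.32% in WT replicate 2, while the mutants ran from 53.3% (prp1) to 97.7% (sap114).

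Regulators of transcription were among them too. Intron 2 of tup12, a Tup1-family corepressor, had 11.9% and 11.2% unspliced in WT and from 82.4% to 98.0% in the mutants. Intron 1 of hsf1, the heat shock transcription factor, had 10.3% and 15.7% in WT and from 82.9% (prp1) to 99.6% (ntr1) in the mutants. Intron 2 of uge1, UDP-glucose 4-epimerase, and intron 1 of SPCC1620.06C complete the 8 largest rises, with WT means of 13.8% ± 2.57 and 5.52% ± 3.19 (SD, n = 2) and mutant means of 93.7% ± 6.55 and 85.4% ± 9.14 (SD, n = 6). In all 8 the lowest mutant library was prp1, as at 90.9% of all tested introns. No mutant share overlapped a WT share at these 8, which were picked for their large rises. All 6 mutants lay above both WT libraries at 98.6% of all tested introns.

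**Figure D3:**
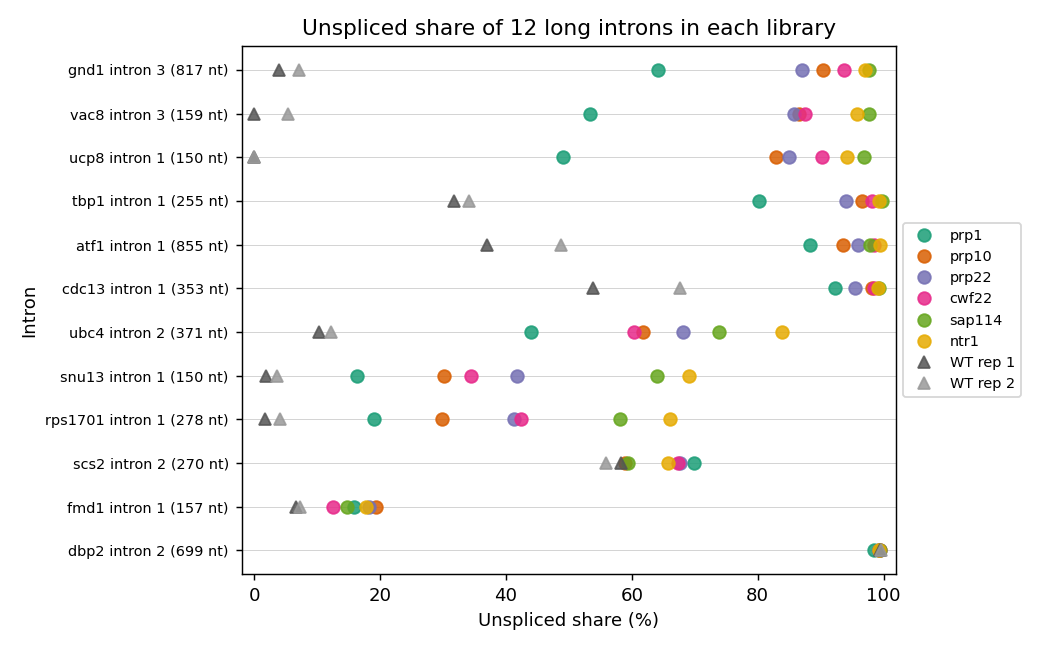
Unspliced share (%) of 12 long introns in each library, with circles for the 6 mutants and triangles for the 2 WT libraries. The mutants lie right of both WT libraries in every row except dbp2 intron 2, where all 8 shares are at 98.4% or more.

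At the lower limit of length, intron 1 of ucp8 had no unspliced read in either WT library (0 of 42 and 0 of 85, which allow shares of up to 7.14% and 3.53%, for counting error only). The mutants had 49.04% (prp1), 83.0% (prp10), 85.1% (prp22), 90.2% (cwf22), 94.1% (ntr1) and 96.9% (sap114). It was the only long intron at 0 in both WT libraries, and 7 others were at 0 in WT replicate 1 alone, the shallower of the pair. Of equal length, intron 3 of gir2, whose first 6 bases are GTATGA, had 27.3% and 32.1% in WT and from 82.9% to 93.8% in the mutants. Intron 1 of snu13, whose protein binds the U4 snRNA, had 1.84% and 3.65% in WT and from 16.3% (prp1) to 69.1% (ntr1) in the mutants. These 3 introns of equal length thus differed widely from each other in both groups. Just below the limit, WT and mutant means were 4.23% and 62.3% at intron 2 of ssr4 (149 nt), 6.27% and 54.7% at intron 1 of rps2801 (149 nt) and 20.3% and 89.97% at intron 1 of naa38 (148 nt).

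At 96 long introns less than 10% of the reads were unspliced in both WT libraries. The mutant means of these introns ran from 16.4% to 91.2% with a median of 66.01%. Of the 96, 95 rose (99.0%, against 96.9% of all tested introns). The exception was the single intron of fmd1 shown above, with 6.67% and 7.25% in WT and 15.9%, 19.4%, 18.2%, 12.5%, 14.8% and 17.8% in prp1, prp10, prp22, cwf22, sap114 and ntr1. Its mutant shares all lay above WT but the change in the odds missed the threshold (log2 change 1.39, SE 0.96, edgeR adjusted p = 0.158), at depths of 27 to 69 reads.

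A second set was, as counted, mostly unspliced in WT. More than 50% of the reads were unspliced in both WT libraries at 59 long introns, each in a different gene, out of 89 such introns among all tested. Their median length was 285 nt, and their WT means ran from 52.8% to 99.5% with a median of 66.3%. In the mutants the median was 94.0%, and 42 of the 59 rose (71.2%, against 96.9% of all tested introns). Scaled to length, the median share of these introns averaged 31.1% in WT and 76.6% in the mutants. A rise in percentage points has little room at these introns, and the median change in the odds was 2.22 on the log2 scale. The risers above 85% in WT were in taf13 (a TFIID subunit), the non-coding snoR61, pis1 (phosphatidylinositol synthase), red5, aly3 and 1 intron at chrII:2162257-2162485 with no matching gene model. Further risers were in muk1, hpz2, zip2, rad25, rad2, hnt3, lsm2, ubc7, gpa2, srp54, dao1, cwh43, osh42, SPAC6G9.01C, pop5, swi5, rpa12, prp38, dph7, fkh1, prs5, cdc13, bdf2, msi2, hom3, cul1, tup12 (intron 3), tsp0, spc3, loc1, SPAC1002.07C, rfc3, par1, pex7, SPAC27E2.03C and SPAC1952.04C. They include genes of splicing itself, namely prp38 (a tri-snRNP protein, 61.9% in WT and 88.2% in mutants) and lsm2 (a subunit of the Lsm ring on U6 snRNA, 74.5% and 97.1%).

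Intron 1 of cdc13, the mitotic B-type cyclin, lies in the 5′ UTR and was unspliced in 53.8% and 67.7% of its WT reads and in 92.4% (prp1) to 99.2% (sap114) of its mutant reads. Intron 1 of taf13 had 91.7% and 91.5% in WT and from 97.1% to 98.9% in the mutants, a rise in the odds of 2.22 on the log2 scale (SE 0.82, edgeR adjusted p = 0.0101). Intron 1 of pis1 (647 nt, with an antisense lncRNA over it) had 89.7% and 90.4% in WT and from 98.0% to 99.9% in the mutants. All 6 mutants lay above both WT libraries at each of these 3 introns, as they did at 98.6% of all tested introns.

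The change was not called at 24 long introns, and the WT mean was over 50% at 18 of these. Intron 2 of dbp2, a DEAD-box RNA helicase, was the one long intron whose mutants all lay below both WT libraries (1 of 414, 0.242%, against 0.0398% of all tested introns). It had 99.5% and 99.6% unspliced in WT and 98.4% (prp1), 99.3% (prp10), 99.2% (prp22), 99.4% (cwf22 and sap114) and 99.3% (ntr1). From 2 to 13 spliced reads per library stand behind these shares. The class change was not called (log2 change -0.82, SE 1.01, edgeR adjusted p = 0.426). In prp1 alone it was the only long intron called as a fall (0.242%, background 0.0398%), with a log2 change of -1.75 (edgeR adjusted p = 0.0406), and that call was not made by DESeq2 (adjusted p = 0.06797), by limma (adjusted p = 0.0947) or by edgeR with no minimum of reads (adjusted p = 0.05308). Its first 20 and last 40 bases (chrII:3663207-3663905, minus strand, 699 nt) are shown because this was the most fully unspliced of the long introns in WT. Its first 6 bases, GTAAGT, are the commonest among the long introns, and it holds CTAAC at 10 nt from its end.
dbp2 intron 2, 5′ side: GTAAGTttttatttaacagt
dbp2 intron 2, 3′ side: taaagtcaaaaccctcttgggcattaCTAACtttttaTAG

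Other introns lay nearer their WT level. Intron 2 of scs2, a VAP-family protein of the endoplasmic reticulum, had 58.3% and 56.0% in WT and 69.9%, 59.0%, 67.7%, 67.3%, 59.3% and 65.7% in prp1, prp10, prp22, cwf22, sap114 and ntr1, from 278 to 592 reads. The prp10 and sap114 shares stood within 1 percentage point of WT replicate 1, and the change was not called (log2 change 0.48, SE 0.76, edgeR adjusted p = 0.533). Intron 2 of end3, an adaptor of endocytosis, and intron 1 of gdt2 had mutant means 5.97 and 7.31 percentage points above their WT means and did not pass (edgeR adjusted p = 0.0771 and 0.127). The remaining introns over 50% in WT that did not pass were in pac3, nrk1, apc11, SPCC132.03, tom20, his6, grx2, SPAC694.04C, dcd1, gga22, rmt1, dph5 and cox19.

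The prp1 library was the lowest of the mutants at most long introns. It had the lowest share of the 6 at 365 of 414 (88.2%, against 90.9% of all tested introns), and the highest was sap114 at 46.1% and ntr1 at 44.4% of them (35.9% and 53.3% of all tested introns). When each strain was fitted against the other 5 mutants, prp1 was lower at 162 long introns (39.1%, background 46.5%) and higher at 0. This count was 94 without the cwf22 library and 100 without the sap114 library, against 797 and 751 of all 2514 tested introns. No other strain was called at any long intron. Unadjusted p was under 0.05 at 8 long introns for sap114 and 22 for ntr1, all higher, and at 0 for the rest. Over all tested introns, 58 were higher in sap114 and 162 in ntr1 by that measure. In the same fit by DESeq2 and limma, prp1 was lower at 202 and 111 long introns, against 1339 and 833 of all 2514. With no minimum of reads prp1 was lower at 0 of all 5108 introns tested, although 214 long introns had an unadjusted p under 0.05.

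At some introns single strains stood apart. At intron 1 of SPAC1F12.10C, prp1 had 38.3% unspliced (1769 reads, 95% Wilson interval 36.1% to 40.6%) while the other mutants had 93.7% (prp10), 87.4% (prp22), 94.7% (cwf22), 96.0% (sap114) and 96.4% (ntr1), and WT 3.96% and 9.25%. Prp1 lay 55.3 percentage points under the mean of the others, with a log2 difference in the odds of -4.72 (SE 0.99, edgeR adjusted p = 0.0218), which was the widest such gap among the long introns with at least 50 reads. Intron 2 of cct7, a subunit of the CCT chaperonin, had 25.3% and 26.0% in prp1 and prp10, 44.8% in cwf22, 50.2% in prp22, 53.1% in sap114 and 66.7% in ntr1, with 2.08% and 2.75% in WT. There the prp10 and prp1 libraries were alike, and neither difference from the other mutants passed (edgeR adjusted p = 1.00 and 0.142).

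Intron 1 of apt1, adenine phosphoribosyltransferase, was lowest in prp10 (58.0%) and highest in prp22 (89.7%), and WT had 32.4% and 32.5%. Intron 1 of tts1, an endoplasmic reticulum membrane protein, spread from 32.2% (prp1) and 47.3% (prp22) to 88.1% (ntr1) and 90.2% (sap114), and prp1 was lower there (log2 difference -2.70, edgeR adjusted p = 0.0285). Intron 1 of SPBC428.12C separated the pair that was usually highest, with 46.1% in sap114 and 87.8% in ntr1. Intron 1 of SPCC61.04C ranged from 30.5% in prp1 and 44.2% in prp10 to 80.7% in sap114 and 89.7% in ntr1. Of the departures at these 6 introns, those of prp1 at SPAC1F12.10C, tts1 and SPBC428.12C (edgeR adjusted p = 0.0300) passed and the others did not. Intron 1 of srp54, of the signal recognition particle, had all 6 mutants between 88.2% and 94.0% and WT at 74.4% and 72.4%.

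The long introns could be set against shorter introns of the same transcript in 212 genes. The long intron had the higher unspliced share in 198 of the 212 genes by mutant means and in 183 by WT means. The median difference in percentage points was 11.9 and 12.3 in the WT libraries, 31.2 (prp1), 21.5 (prp10), 19.7 (prp22), 19.0 (cwf22), 13.7 (sap114) and 11.3 (ntr1). Prp1 thus had the widest gap and ntr1 a gap no wider than WT, at the library where shorter introns were themselves most unspliced. With unspliced counts scaled to length the same medians ran from -3.58 (prp22) to 2.76 (prp1) in the mutants and were 1.63 and 1.10 in WT.

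Most of the within-gene difference lay in the unspliced reads. The median log2 ratio of unspliced reads, long over shorter, was 1.57 in the mutant means and 2.25 in WT, against a median log2 ratio of lengths of 1.82. Spliced reads differed little, with median log2 ratios of -0.23 and -0.05. The rank correlation across the 212 genes between the length ratio and the unspliced ratio was 0.710 in the mutants and 0.448 in WT, as a description of genes that share libraries. The unspliced reads lay closer to the length ratio in the mutants than in WT, where counts are smaller.

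**Figure D4:**
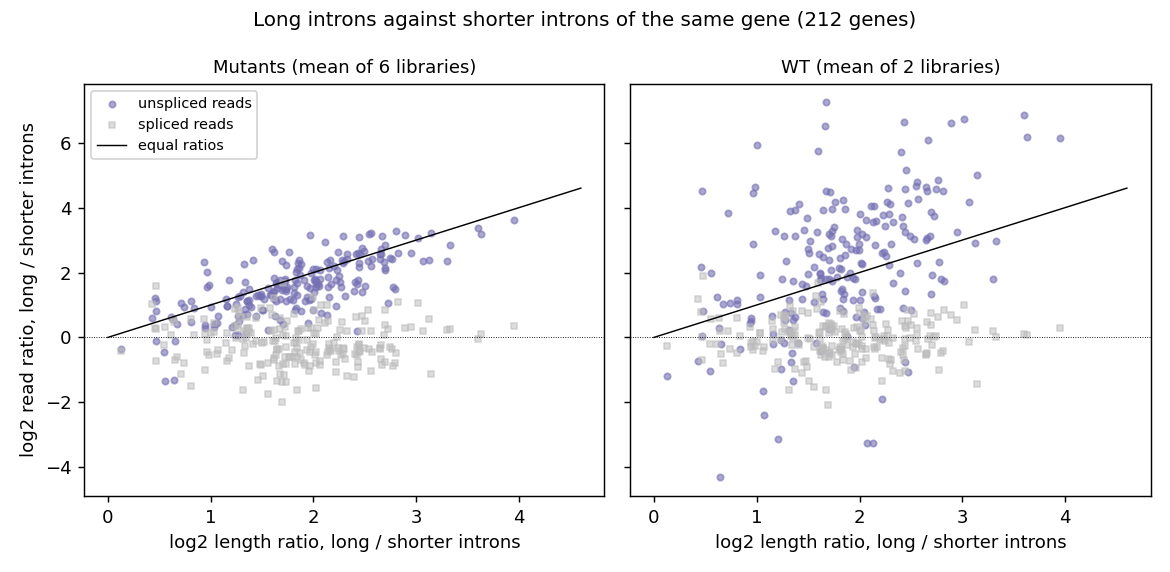
Log2 ratio of reads between long and shorter introns of the same gene against the log2 ratio of their lengths in 212 genes, for the mean of the 6 mutants (left) and of the 2 WT libraries (right), with unspliced reads as circles, spliced reads as squares, and a line where both ratios are equal. Unspliced ratios rise with the length ratio in the mutants, with a median of 1.57 against 1.82 for lengths. They scatter widely in WT, with a median of 2.25, and spliced reads lie around 0 in both.

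The widest within-gene gaps in the mutants were in tif6, tom20, SPAC644.09 and kgd2. Intron 2 of tif6 (315 nt), the ribosome anti-association factor eIF6, averaged 80.1% in mutants and 16.9% in WT, against 30.1% and 0.505% at its 54-nt intron. Intron 1 of tom20, the import receptor of the outer mitochondrial membrane, averaged 87.6% and 78.1%, against 38.1% and 6.10% at its shorter introns. That intron was largely unspliced in WT already, while in tif6 and in kgd2, an enzyme of the 2-oxoglutarate dehydrogenase complex (87.6% and 21.5%), the long intron was mostly spliced in WT. In 3 genes the order was reversed most strongly. Intron 2 of pfd1, a prefoldin subunit, averaged 40.6% in mutants and 3.07% in WT against 70.0% and 45.0% at its 97-nt intron. Intron 2 of rpl3801 averaged 44.9% and 4.71% against 70.1% and 9.45% at its 129-nt intron, and intron 1 of SPAC4H3.09 averaged 54.0% and 5.58% against 65.7% and 8.54%.

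The gnd1 gene carries 3 of the long introns and a shorter first one, and they behaved differently in WT. Its 61-nt intron 1 was unspliced in 0.681% and 0.952% of WT reads, its 165-nt intron 2 in 37.2% and 35.1%, its 817-nt intron 3 in 4.03% and 7.10%, and its 172-nt intron 4 in 2.71% and 3.03%. The longest of the 3 was therefore not the most retained in WT. In the mutants the shares ran from 21.4% (prp1) to 85.3% (ntr1) at intron 1, from 83.1% to 97.1% at intron 2, from 64.2% to 97.7% at intron 3 and from 35.2% (prp1) to 89.8% (sap114) at intron 4. The odds rose at all 3 long introns, by 4.89 (SE 1.01), 7.73 (SE 1.28) and 7.0 (SE 1.13) on the log2 scale at introns 2, 3 and 4 (edgeR adjusted p = 3.66e-05, 3.41e-06 and 3.02e-06).

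The ends of the gnd1 introns are shown because intron 2 differs from its neighbours there, as first 20 and last 40 bases on the plus strand.
gnd1 intron 2, 5′ side: GTATGTgaaaaagaatatag
gnd1 intron 2, 3′ side: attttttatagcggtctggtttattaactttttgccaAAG
gnd1 intron 3, 5′ side: GTAAGTtttgtgtaatgttc
gnd1 intron 3, 3′ side: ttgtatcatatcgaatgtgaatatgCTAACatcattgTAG
gnd1 intron 4, 5′ side: GTAATGatattgattgatat
gnd1 intron 4, 3′ side: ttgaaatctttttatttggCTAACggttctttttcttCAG
Intron 2 (chrII:230451-230615) holds none of the 4 branch-site letters in its last 60 nt and ends in AAG, whereas introns 3 (chrII:230680-231496) and 4 (chrII:231565-231736) hold CTAAC at 11 and 17 nt from the end. It also follows an exon of only 5 nt in the annotation (chrII:230446-230450). A read spliced at both sides of that exon has little sequence there to align, and whether such reads are missing from the spliced count was not tested. Spliced reads per 1000000 were 3966 and 4944 at intron 2 against 11065 and 10926 at intron 3 in the WT libraries.

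The longest introns of separate genes were in atf1 (855 nt, in the 5′ UTR), elo1 (837 nt), gnd1 (817 nt), cit1 (784 nt) and prr1 (756 nt). Intron 1 of atf1, a stress-activated bZIP transcription factor, had 37.0% and 48.7% unspliced in WT and 88.4%, 93.6%, 95.9%, 98.5%, 97.9% and 99.4% in prp1, prp10, prp22, cwf22, sap114 and ntr1. Intron 1 of elo1, a fatty acid elongase, had 50% and 46.2% in WT and from 88.1% to 99.3% in the mutants, with prp1 set apart as the lowest. Intron 1 of cit1, citrate synthase, and intron 2 of prr1, a transcription factor of the oxidative stress response, had WT means of 54.6% ± 7.76 and 45.3% ± 7.95 (SD, n = 2) beside 94.2% ± 3.73 and 92.7% ± 4.30 (SD, n = 6) over the mutants. All 5 rose (edgeR adjusted p from 3.41e-06 to 0.000125), and the gnd1 intron had the lowest WT share of the 5.

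Intron 1 of tbp1, the TATA-binding protein (255 nt), was unspliced in 31.8% and 34.2% of WT reads and in 80.2% (prp1), 94.0% (prp22), 96.6% (prp10), 98.2% (cwf22), 99.3% (ntr1) and 99.8% (sap114) of mutant reads, from 1299 to 13498 reads. Intron 2 of ubc4, a ubiquitin-conjugating enzyme (371 nt), had 10.3% and 12.3% in WT and 44.0% (prp1), 60.4% (cwf22), 61.8% (prp10), 68.2% (prp22), 73.8% (sap114) and 83.9% (ntr1). Both rose (log2 changes 6.42 and 3.97, SE 1.24 and 0.96, edgeR adjusted p = 1.60e-05 and 0.000238), and ubc4 kept the larger spliced part in every mutant.

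Spliced reads of the long introns fell in the mutants to about the same degree as those of other introns. With scaling by TMM factors of the intron totals, edgeR's quasi-likelihood F test called spliced reads lower at 338 long introns (81.6%, background 81.7%) and higher at 0, with no unadjusted p under 0.05 for a rise and none by DESeq2. The median log2 change was -1.41 at the long introns and -1.38 over all tested introns. Median spliced reads per 1000000 were 147 and 140 in the WT libraries and 88.9 (prp1), 59.2 (prp10), 56.6 (prp22), 47.4 (cwf22), 31.9 (sap114) and 31.1 (ntr1). All 6 mutants lay below both WT libraries at 376 long introns (90.8%, background 92.6%). The count rests on both WT libraries, since the calls were lost without either of them, at the long introns as over all tested introns. The median log2 change was then -1.35 (without WT replicate 1) and -1.43 (without WT replicate 2) at the long introns. Over all tested introns it was -1.36 and -1.39. The count also rests on the scaling. TMM factors of the spliced counts alone moved the median over all introns to -0.03. Then 23 of the 414 long introns were lower and 18 higher, against 70 and 59 of all 2514 tested introns.

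The largest falls were in cdc13, zip2 and opy1. Spliced reads per 1000000 at cdc13 intron 1 were 92.0 and 48.6 in WT and 17.7 (prp1), 3.90 (prp10), 10.4 (prp22), 3.64 (cwf22), 1.80 (sap114) and 1.27 (ntr1), from 2 to 20 reads in the mutants. The log2 change was -3.40 (SE 0.73, edgeR adjusted p = 0.0128), and it was -3.13 at zip2 intron 1 and -3.0 at opy1 intron 1 with the same adjusted p. The smallest changes were at dbp2 intron 2 (log2 change 0.25, SE 0.88), rps1701 intron 1 (-0.35, SE 0.26) and oga1 intron 1 (-0.35, SE 0.34), none of which passed. Dbp2 intron 2 was the single long intron whose mean of spliced reads per 1000000 was higher in the mutants than in WT (4.46 ± 3.52 and 3.89 ± 0.697).

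Ribosomal protein genes held 21 of the long introns. Their median share averaged 58.4% ± 15.5 (SD, n = 6) in the mutants and 6.27% ± 1.37 (SD, n = 2) in WT, and 19 of the 21 rose (90.5%, against 94.7% of the 76 tested introns of such genes and 96.9% of all tested introns). Those that did not pass were in rps1801 (13.1% and 14.3% in WT, 18.8% in prp1 to 40.9% in ntr1, edgeR adjusted p = 0.0729) and rpl102 (WT mean 53.2%, mutant mean 74.1%, edgeR adjusted p = 0.0837). Spliced reads were lower at 12 of the 21, at 43 of the 76 and at 81.7% of all tested introns, with a median log2 change of -0.62 in both ribosomal sets and -1.38 over all tested introns. At rps1701 intron 1 (278 nt), a small-subunit protein, 1.75% and 4.09% of the reads were unspliced in WT and 19.0%, 29.8%, 41.2%, 42.4%, 58.2% and 66.1% in prp1, prp10, prp22, cwf22, sap114 and ntr1. Its spliced reads per 1000000 were 3821 and 3445 in WT and from 2022 (ntr1) to 3566 (prp10) in the mutants. The spliced reads thus overlapped between groups while the unspliced share did not. This intron was named for its small change in spliced reads. All 6 mutants lay above both WT libraries in unspliced share at 98.6% of all tested introns.

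**Figure D5:**
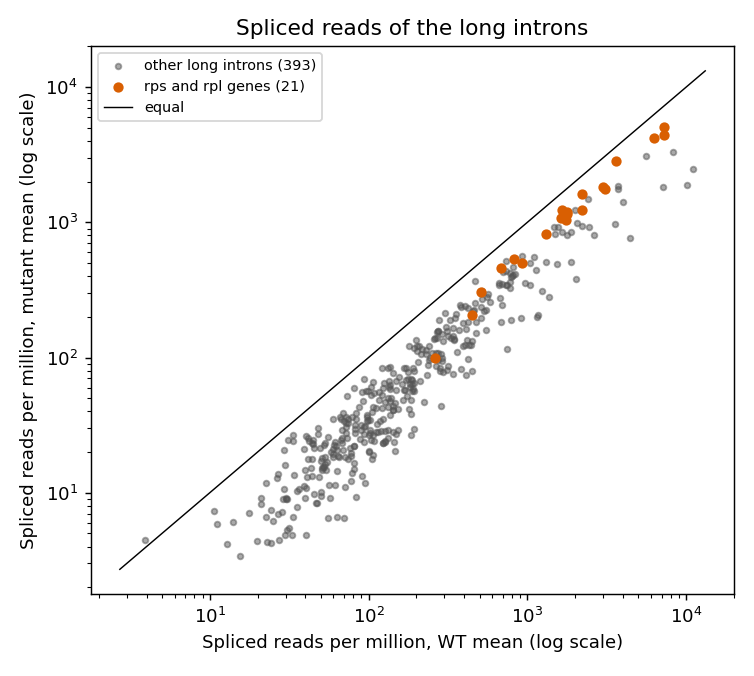
Spliced reads per 1000000 (log scales) of each of the 414 long introns, as the mean of the 6 mutants against the mean of the 2 WT libraries, with the 21 introns of rps and rpl genes in orange and a line where both are equal. All introns but that of dbp2 lie below the line, and the ribosomal ones lie closer to it than most.

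Junctions of other classes were found inside 216 of the long introns (52.2%) and inside 382 of the 2100 shorter ones (18.2%), where there is less room for them. Of the 421 junctions wholly inside long introns, 210 used another 5′ splice site, 194 another 3′ splice site and 17 were called new introns by the authors. Their reads came to 0.615% ± 0.0796 (SD, n = 6) of the spliced reads of these introns in the mutants and 0.645% ± 0.00240 (SD, n = 2) in WT. The mutant values spanned the WT ones. The following introns were singled out after their values were seen and carry no test. At ypt1 intron 1, a Rab GTPase of vesicle transport, a 46-nt junction from an inner 5′ splice site took 2.19% and 3.18% of its own plus annotated spliced reads in WT and from 7.29% (prp1) to 14.6% (sap114) in the mutants, on 24 to 146 reads. At ubc7 intron 1 a junction to an inner 3′ splice site took 14.1% and 13.2% in WT, 14.2% in prp22, 13.4% in prp1, 7.87% in prp10, 4.50% in ntr1, 2.44% in cwf22 and 2.08% in sap114, the last 2 on 2 reads each. An inner 5′ splice site of ubc4 intron 2 had 0 reads in WT, 31 in ntr1 and from 1 to 10 in the other mutants.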

How the data were processed

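One table of the series was used, which the authors deposited as whole-number counts of spliced and of unspliced reads per splice junction and library, per the file headers, with no normalization. STAR 2.5, bedtools 2.26 and build ASM294v2 are named, per the submitters' processing notes; nothing in the sources used here gives the read length, the annotation or the rule for an unspliced read. Groups came from the genotype labels and sample titles. No column belonged to another series.

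Tests used edgeR 4.0.16 (R 4.3.3), with 1 coefficient per library and 1 of unspliced over spliced per group, fitted on the 2514 introns whose reads numbered 20 or more in each library and adjusted by Benjamini-Hochberg over all of them. Residual degrees of freedom were 6 for the class, 1 for a strain against WT and 4 for a strain against the other 5 mutants. Spliced reads were tested with TMM factors of intron totals and are given per 1000000 of that effective library size. DESeq2 1.42.0, limma 3.58.1 (log2 odds, pseudocount 0.5), a minimum of 50 reads, no minimum, a limit of 200 nt and leaving out each library were alternatives. The fits were checked on simulated counts. Wilson intervals (95%) and limits for a count of 0 (3 reads) cover counting error only. Python 3.11.15, pandas 2.3.3, numpy 2.4.6, scipy 1.17.1, Biopython 1.88 and matplotlib 3.10.9 were used.

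The members, lists and rules were chosen with earlier results of these data known. Introns were named, 1 per gene and with at least 50 reads, as the 8 largest rises, the 5 smallest changes, the extremes of each strain against the other mutants, the 5 longest, the 3 largest falls and 3 smallest changes of spliced reads, the 4 highest and 3 lowest within-gene differences, those over 50% unspliced in both WT libraries, those next to the limit of 150 nt, and tbp1, gnd1, ubc4 and dbp2. Introns outside this rule (fmd1, pis1, rps1801, rpl102, ypt1, ubc7 and the inner junction of ubc4) were named after their values were seen.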

Additional observations from a re-analysis of the deposited data

Results flagged for a closer look

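In groups of this size chance sets about 1 in 20 apart by the test used here, Dixon's gap ratio at its 95% value, and the 6 mutants are different strains rather than replicates. The prp1 library stood below the other 5 mutants in unspliced share at most introns so marked. This held for the largest rises, with prp1 at 64.24% in gnd1 intron 3, 73.91% in nog1 intron 3, 64.12% in dsc5 intron 1, 53.29% in vac8 intron 3, 82.91% in hsf1 intron 1, 81.2% in uge1 intron 2 and 68.15% in SPCC1620.06C intron 1. It held for introns that were largely unspliced in WT, with prp1 at 98.44% in dbp2 intron 2, 79.93% in swi5 intron 2, 87.36% in tsp0 intron 3 and 86.61% in dao1 intron 1. Among the remaining named introns prp1 stood apart at 38.33% in SPAC1F12.10C intron 1, 88.13% in elo1 intron 1, 51.68% in tif6 intron 2, 49.04% in ucp8 intron 1, 80.25% in tbp1 intron 1 and 35.22% in gnd1 intron 4. At tom20 intron 1 the low library was prp10, at 84.14%, while prp1 was among the others.

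At SPAC1F12.10C intron 1 the difference between prp1 and the mean of the other mutants was -55.3 percentage points, and the test of that difference passed (edgeR quasi-likelihood, adjusted p = 0.02183, 1 library against 5), but not with no minimum of reads (adjusted p = 0.0783).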

How the results depend on the processing

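The rises of the class kept their count within 1.5 times under every alternative run, with 353 to 400 long introns when each library was left out. The single fall in prp1 became 0 with DESeq2, with limma and with no minimum of reads. The introns lower in prp1 than in the other mutants, 39.13% of the long introns, became 22.71% (94 introns) without cwf22 and 24.15% (100) without sap114. Over all 2514 tested introns the count went from 1168 to 797 and 751 in these 2 fits. The part of the long introns was up to 46.14% without 1 of the other libraries. With no minimum, where 5108 introns were tested, it was 0%. Falls in spliced reads went from 338 to as many as 387 without 1 library. Without either WT library the calls were lost, at the long introns as over all 2514 tested introns. With TMM factors of spliced counts alone 23 long introns fell and 18 rose, against 70 and 59 of all 2514 tested introns. With those factors rps1701 intron 1 and oga1 intron 1 turned to 1.073 and 1.028 on the log2 scale. Both then passed as rises (edgeR adjusted p = 0.03929 for each). The WT median share was 17.32% at a minimum of 50 reads, 25.79% at a limit of 200 nt and 5.977% with unspliced counts scaled to length, where the mutants had 58.99% and the difference was 53.01 percentage points. The WT within-gene difference was 10.07 at a minimum of 50 reads, 21.12 at 200 nt and 1.366 scaled to length. That of the mutants, 19.4 as counted, turned to -0.389 ± 2.34 (SD, n = 6) when scaled. In 3 cases a single value that was not called changed sign when a library was left out. The log2 change in the odds at pac3 intron 1 ran from -0.1473 (without WT replicate 2) to 1.311, the difference of prp10 from the other mutants at SPAC1F12.10C intron 1 from -0.1803 (without prp1) to 0.9539, and the change in spliced reads at dbp2 intron 2 from -0.2716 (without prp1) to 0.4004. Of the values for single introns, 1236 kept direction and side of the threshold, 63 lost and 10 gained a call. The cause of these shifts was not tested. Strain fits without a WT library were not run, since they leave 0 residual degrees of freedom. No paired analysis was possible because each mutant has 1 library and only WT carries replicate numbers. Depth limits the WT side most, where the shallower library had a median of 99.5 reads at a long intron.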
